A study of Mus musculus with 6 samples.

Results

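The cyclin-dependent kinase (CDK) inhibitor genes are 7 genes, Cdkn1a, Cdkn1b, Cdkn1c, Cdkn2a, Cdkn2b, Cdkn2c and Cdkn2d, chosen by name as the complete Cip/Kip and Ink4 families and found through GENCODE vM21 among 50686 gene identifiers. All 7 were measured by RNASeq and looked up in lists of H3K27me3 ChIPSeq peaks in mouse neural stem cells (NSC). The study asked how Bmi1 and the H3K27me3 mark act on transcription in gliomagenesis. RNASeq came from 2 independent cultures of NSC, prepared from wild-type E16.5 embryos, and from 2 cultures of NSC Bmi1Over, prepared at the same age from STOPFloxBmi1;NestinCre embryos, in which Cre recombinase made under the Nestin promoter removes a stop cassette ahead of a Bmi1 transgene. ChIPSeq gave 1 list of peaks per genotype. All cultures were non-neoplastic primary cells of the embryonic brain. The mGIC samples were not analysed here.

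CDK inhibitors hold back the cell cycle before S phase. The Ink4 proteins bind Cdk4 and Cdk6 and keep cyclin D away from them, whereas the Cip/Kip proteins bind complexes of cyclins with CDKs, above all those of Cdk2, and both keep the retinoblastoma protein in its active form. Cdkn2a encodes p16Ink4a and, from a separate first exon and in another reading frame, p19Arf, which shields p53 from Mdm2. Bmi1 is a subunit of Polycomb repressive complex 1, H3K27me3 is laid down by Polycomb repressive complex 2, and the Cdkn2a locus is the best known target of Bmi1 in neural and haematopoietic stem cells.

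Reads counted on genes ranged from 18112100 to 61353076 per library. Unmapped reads were 11.2% and 13.7% in NSC and 16.2% and 17.6% in NSC Bmi1Over, so that this share moved with genotype, and its part in the differences below was not tested. Levels are given as CPM, counts scaled to the TMM-normalised library size, and differences as log2 fold changes of NSC Bmi1Over over NSC with the standard error (SE) from edgeR's quasi-likelihood fit, with p adjusted by the Benjamini-Hochberg method over 15521 genes. With 2 libraries per group, an exact two-sided permutation test of a single gene cannot give p below 0.333. Bmi1 itself was at 133.3 and 123.5 CPM in NSC and at 118.6 and 112.6 CPM in the libraries labelled NSC Bmi1Over. The log2 fold change of Bmi1 was −0.15 (SE 0.12, adjusted p = 0.463), so that the counts did not show the increase the label names, and whether transgene transcripts are counted on this gene is not given in the sources used here. The 8 neural stem cell markers summed to between 6024 and 6730 CPM, and none of them was called. Of these markers 6 had estimates below 0, with a median log2 fold change of −0.27, near that of the CDK inhibitor genes given below. Sox2, a transcription factor of stem cells, had a log2 fold change of −0.42 (adjusted p = 0.129) and Hes5, a Notch target, of −0.74 (adjusted p = 0.132), while Slc1a3, the most abundant, had one of 0.46 (adjusted p = 0.257). The groups of all 3 were separate, as for 59.0% of tested genes. Syt1, a neuronal marker, rose (log2 fold change 2.18, adjusted p = 0.0428) and Aldh1l1, an astrocyte marker, fell (log2 fold change −0.86, adjusted p = 0.0440) in the libraries labelled NSC Bmi1Over. Of the 5 astrocyte markers, 2 had estimates above 0 and 3 below, with a median of −0.06, and Slc1a2, the most abundant, had a log2 fold change of 0.39 (adjusted p = 0.223). Of the 5 tested neuronal markers, 2 had estimates above 0 and 3 below, with a median of −0.07, and only Syt1 was called. The neuronal markers summed to 964 and 940 CPM in NSC and to 1008 and 921 CPM in NSC Bmi1Over. The oligodendrocyte lineage markers summed to 2052 to 2332 CPM with 0 of 5 called. The mesenchymal, endothelial and erythroid markers were each at or under 2.71 CPM with none called. Gfap was at or under 0.770 CPM in each library, and no microglial marker exceeded 0.119 CPM. The part of these shifts in the results below was not tested. In such bulk samples, fewer cells of a type and less RNA per cell cannot be told apart.

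The members spanned a wide range of levels. On the RPKM scale, which divides the normalised reads by exon length and so allows genes to be compared, Cdkn1a (p21), the p53-responsive Cip/Kip member, was the highest at 71.8 as the mean of the 4 libraries, with a range from 65.1 to 77.7. This placed it above 97.7% of 21828 protein-coding genes, and with the length of the longest transcript it came to 122.6 RPKM. Cdkn2c (p18Ink4c) followed at 28.4 RPKM (23.3 to 31.4), then Cdkn1b (p27) at 21.9 (18.97 to 26.2), Cdkn2a at 19.5 (14.5 to 23.98) and Cdkn2d (p19Ink4d) at 17.9 (16.4 to 19.3). The ranges of these 4 neighbours overlapped from each to the next, although Cdkn2c was the highest of them within each library and its range was separate from that of Cdkn2d, and by its longest transcript in place of all exons Cdkn2a came to 25.6 RPKM, above Cdkn1b. Cdkn2b (p15Ink4b) was lower at 4.30 RPKM (3.37 to 5.90), and Cdkn1c (p57) was the lowest at 0.886 RPKM (0.616 to 1.38), close to the middle of all protein-coding genes, on counts that leave out reads shared with a gene on the other strand. The ranges of Cdkn1a and Cdkn2c, of Cdkn2d and Cdkn2b, and of Cdkn2b and Cdkn1c were separate. Summed over each family, the Cip/Kip genes gave 105.3 and 97.9 RPKM in NSC and 90.1 and 84.9 RPKM in NSC Bmi1Over, and the Ink4 genes gave 80.6 and 72.9 RPKM in NSC and 69.8 and 57.6 RPKM in NSC Bmi1Over. Both sums were lower in each NSC Bmi1Over library than in either NSC library, a pattern also seen in 30.0% of single tested genes. Most of the Cip/Kip sum was Cdkn1a, at 76.5 of 101.6 RPKM as means in NSC. The largest part of the Ink4 sum was Cdkn2c, whose own groups overlapped, so that the sums do not speak for each member.

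**Figure D1:**
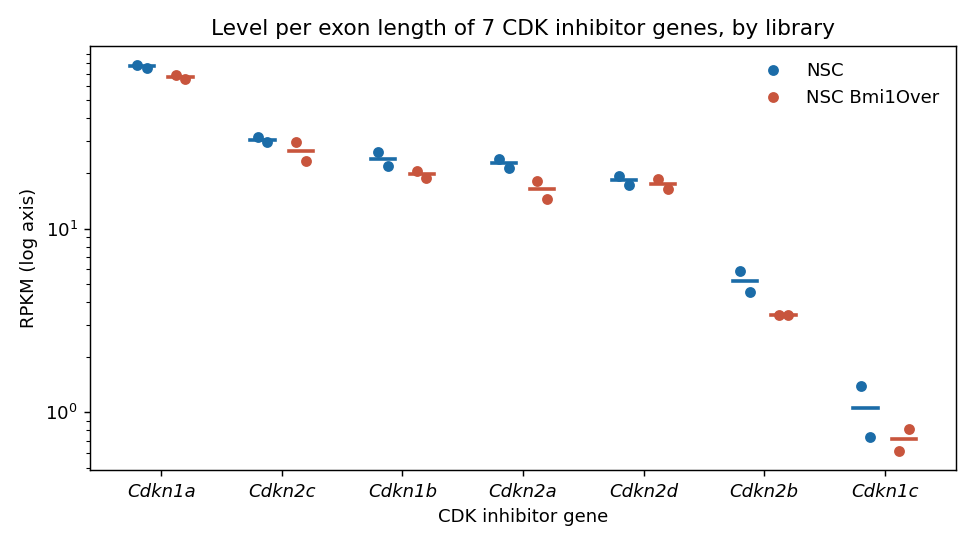
RPKM of the 7 CDK inhibitor genes on a log axis, with 1 point for each of the 4 libraries (blue for NSC, red for NSC Bmi1Over) and a bar at the mean of each group of 2. Cdkn1a stands at 65.1 to 77.7 RPKM, 4 genes share the range from 14.5 to 31.4 RPKM, and Cdkn2b and Cdkn1c lie apart below them.

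All 7 CDK inhibitor genes had enough reads to be tested, and none passed the adjusted threshold of 0.05, where 2.15% of all tested genes did (2.03% higher and 0.122% lower in NSC Bmi1Over). All 7 estimates were below 0, with a median log2 fold change of −0.28, while 51.4% of all tested genes had an estimate below 0 and the median over them was −0.01. At an unadjusted p under 0.05 in the same edgeR fit, 2 of the 7 members passed, Cdkn2a and Cdkn2b, which is near the background of 24.2% of tested genes. With library size alone, 5 of the 7 passed beside 32.0% of all genes, and without a filter on low counts 3 passed beside 18.1%. DESeq2's Wald test called none of the 7 after adjustment, beside 1496 of all 15521 genes, and likewise 2 before it, beside 19.8%. For 4 members, Cdkn1a, Cdkn1b, Cdkn2a and Cdkn2b, both NSC Bmi1Over libraries lay below both NSC libraries, which was so for 30.0% of tested genes, and for 59.0% with separate groups in either direction. The 7 genes stayed below 0 in each of the 9 alternative settings that kept all 4 libraries, including scaling by library size alone, which moved the median over all genes to −0.17 and that of the members to −0.43.

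**Figure D2:**
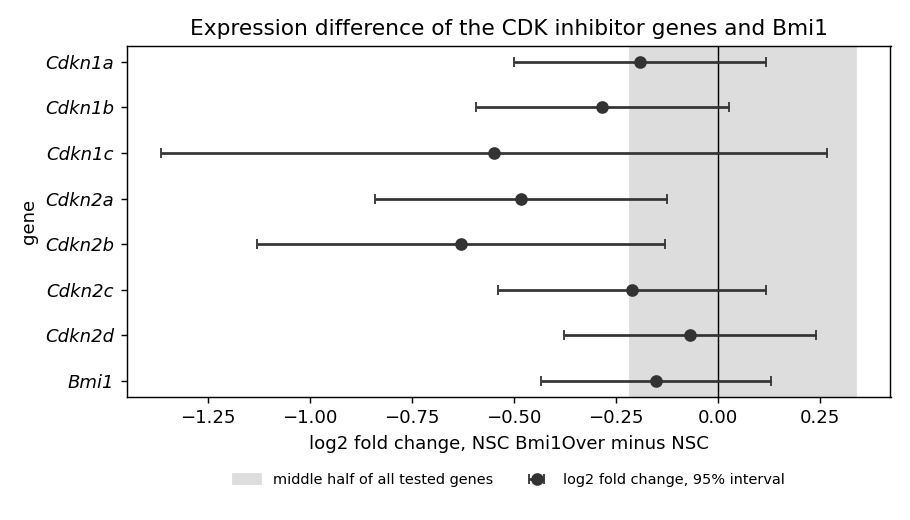
Log2 fold change of NSC Bmi1Over over NSC for the 7 CDK inhibitor genes and Bmi1, with points at the estimates, bars for 95% intervals from edgeR, and a grey band between the quartiles of all tested genes (−0.21 and 0.34). The intervals of Cdkn2a and Cdkn2b end below 0, and those of the other 5 members and of Bmi1 include it.

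Among the Ink4 genes, Cdkn2a (ENSMUSG00000044303) lies on the minus strand of chromosome 4 from 89274471 to 89294653 in the mm10 build. It received 887 and 635 reads in NSC and 375 and 971 reads in NSC Bmi1Over, or 28.1 and 25.1 CPM against 21.4 and 17.0 CPM. Both NSC Bmi1Over values were below both NSC values, with means of 26.6 ± 2.11 CPM in NSC and 19.2 ± 3.13 CPM in NSC Bmi1Over (SD, n = 2 each). The log2 fold change was −0.48 (SE 0.16, 95% interval −0.84 to −0.12), a level in NSC Bmi1Over of 0.716 times that in NSC, with an unadjusted p of 0.0141 and an adjusted p of 0.116 by edgeR. Without a filter on low counts the change was −0.50 and the adjusted p 0.0308 by edgeR, in a setting that called 2356 of 28541 genes. The change was −0.65 without replicate 1 of NSC Bmi1Over, −0.31 without replicate 2 of NSC Bmi1Over and −0.40 without replicate 1 of NSC. Over the 9 settings that kept all libraries the adjusted p ran from 0.0113 to 0.130. Counts per gene do not separate the p16Ink4a transcript from that of p19Arf.

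Cdkn2a was also the member with the broadest H3K27me3. In NSC, 2 peaks covered 86.7% of the gene. The longer peak ran over 16552 bp from 89268461 to 89285012, was enriched 7.35-fold over MACS2's background at a −log10 q of 10.2, and was 72nd by length of 12982 peaks in the list. The second ran over 6957 bp from 89285614 to 89292570 with a fold of 5.17 and a −log10 q of 5.005. In NSC Bmi1Over, 14 shorter peaks covered 60.2% of the gene, the longest of them 6012 bp with a fold of 5.51 and a −log10 q of 4.29, which was 52nd by length of 6810 peaks. The domain was thus present in both lists, called in long stretches in NSC and in pieces in NSC Bmi1Over. From the peaks on the gene, the domain was extended outward from peak to peak across gaps of at most 1000 bp. Gaps between the peaks on the gene itself were kept at any length, up to 1166 bp in NSC Bmi1Over. The domain so counted spanned 27225 bp in NSC, with 94.9% of it in peaks and a length-weighted fold of 6.55. In NSC Bmi1Over it spanned 25549 bp, with 71.1% in peaks and a fold of 5.50. With 1 library per genotype no difference in H3K27me3 can be tested, and the NSC Bmi1Over list was the shorter over the whole genome. The methods of the study give read totals for the libraries of each genotype that differ widely, and say that the weaker library by reads, quality scores and enrichment plots was dropped, without naming the one that was kept, so that depth and genotype cannot be told apart in the length and number of peaks.

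The domain took in the Ink4a start and not the Arf start. The Ink4a start at 89282192, in an intron of the Arf transcript, lay within a peak of each list, in NSC Bmi1Over a peak of 645 bp with a fold of 5.92. The Arf start at 89294653, 12461 bp upstream, lay in none, as the domain ended 2083 bp short of it in NSC and 2780 bp short of it in NSC Bmi1Over. The start of Cdkn2b lies a further 16386 bp upstream, and the next peak beyond it came after 155140 bp in NSC and after 376664 bp in NSC Bmi1Over. Over the whole window from Cdkn2a to Cdkn2b with 5 kb on each side, peaks covered 22499 bp in NSC and 16572 bp in NSC Bmi1Over. All 16572 bp were also within NSC peaks, which is 73.7% of the NSC length and 100.0% of the NSC Bmi1Over length.

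The bases just upstream of these 3 starts are shown because the start within a peak and its neighbours outside peaks differ in CpG content. Of these neighbours, the Arf start still had a peak within 5 kb in both lists, and the Cdkn2b start had none. The printed bases come from RefSeq (GRCm38.p6, the assembly of mm10) and are written 5′ to 3′ on the minus strand of chromosome 4. Each CpG is in capitals. The Ink4a stretch is chr4:89282193-89282442, the Arf stretch is chr4:89294654-89294869, and the Cdkn2b stretch is chr4:89311040-89311282. For Arf and Cdkn2b, RefSeq puts the start 34 and 7 bases inside the first exon of GENCODE, and those bases were left out.
Ink4a start: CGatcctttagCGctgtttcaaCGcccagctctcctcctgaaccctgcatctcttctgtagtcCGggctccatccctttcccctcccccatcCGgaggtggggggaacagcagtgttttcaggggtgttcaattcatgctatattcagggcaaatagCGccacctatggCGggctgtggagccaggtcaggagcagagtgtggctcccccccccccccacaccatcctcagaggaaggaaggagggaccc
Arf start: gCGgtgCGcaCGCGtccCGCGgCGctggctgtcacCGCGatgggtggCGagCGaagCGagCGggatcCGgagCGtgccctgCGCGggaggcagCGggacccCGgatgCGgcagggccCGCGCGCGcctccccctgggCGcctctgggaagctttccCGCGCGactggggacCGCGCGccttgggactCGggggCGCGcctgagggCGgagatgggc
Cdkn2b start: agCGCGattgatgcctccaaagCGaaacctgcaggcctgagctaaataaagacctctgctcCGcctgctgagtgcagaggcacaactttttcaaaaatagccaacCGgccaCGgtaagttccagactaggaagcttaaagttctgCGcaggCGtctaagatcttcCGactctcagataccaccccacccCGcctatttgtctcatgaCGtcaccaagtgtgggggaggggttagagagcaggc

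In the full 250 bases before each RefSeq start, the Ink4a promoter held 7 CpG, close to the median of 6 over 32851 mouse promoters, and all 250 bases were within peaks of both lists. The Arf promoter held 40 CpG, more than 98.7% of promoters, at a GC content of 78.4%, and no base of it was within a peak. The Cdkn2b promoter held 12 CpG, more than 66.5% of promoters, and was likewise outside every peak. Of the other members, RefSeq starts of Cdkn1b (28 CpG), Cdkn2d (16), Cdkn1a (2 and 19 at separate starts) and Cdkn2c (6 and 29) were in the table, all without a peak. Thus 6 of the 7 members had an entry. These counts follow RefSeq. By GENCODE, the Cdkn2c window with 29 CpG lies downstream of the nearest start, at 109667189, and the Cdkn2d window spans starts at 21291308 and 21291407. The GC box, searched as GGGCGG on either strand, was found in 32.7% of all promoters. It occurred in the promoters of Arf, Cdkn1a (at the start with 19 CpG), Cdkn1b, Cdkn2c (at the start with 29 CpG) and Cdkn2d, and its letters were not in the windows of Ink4a and Cdkn2b.

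**Figure D3:**
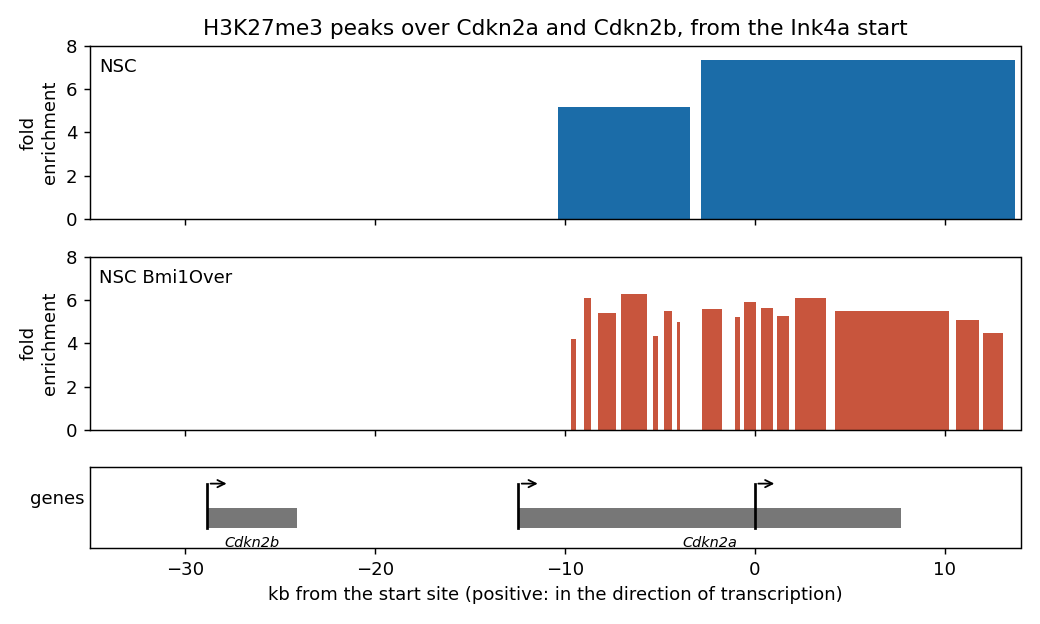
H3K27me3 peaks over Cdkn2a and Cdkn2b in NSC (top, blue) and NSC Bmi1Over (middle, red), with each bar as wide as its peak and as high as its fold enrichment, against distance in kb from the Ink4a start. The lower panel gives the genes as grey boxes with arrows at their starts, and the peaks of both lists end between the Ink4a and the Arf start, leaving Cdkn2b uncovered.

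Cdkn2b (ENSMUSG00000073802, chromosome 4, 89306299 to 89311039, minus strand), a gene known for its induction by TGF-beta, received 259 and 159 reads in NSC and 82 and 269 reads in NSC Bmi1Over. These were 8.21 and 6.29 CPM in NSC and 4.68 and 4.71 CPM in NSC Bmi1Over, so that the groups did not overlap and the NSC Bmi1Over libraries were nearly equal. The log2 fold change was −0.63 (SE 0.22, 95% interval −1.13 to −0.13), with an unadjusted p of 0.0195 and an adjusted p of 0.133 by edgeR. Over the alternatives with all libraries the adjusted p ran from 0.0426 to 0.150. No H3K27me3 peak lay within 5 kb of its start in either list, and the nearest, the end of the Cdkn2a domain, lay at 18469 bp in NSC and at 19166 bp in NSC Bmi1Over.

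Cdkn2c (ENSMUSG00000028551, chromosome 4, 109660876 to 109667189, minus strand) was at 84.4 and 79.3 CPM in NSC and at 79.3 and 62.5 CPM in NSC Bmi1Over. The groups overlapped, with replicate 1 of NSC Bmi1Over level with replicate 2 of NSC, and the log2 fold change was −0.21 (SE 0.14, adjusted p = 0.387). It was −0.04 without replicate 2 of NSC Bmi1Over and −0.39 without replicate 1 of NSC Bmi1Over (adjusted p = 0.910 and 0.0759). Cdkn2d (ENSMUSG00000096472, chromosome 9, 21288410 to 21291407, minus strand) was at 30.4 and 27.3 CPM in NSC and at 29.4 and 25.8 CPM in NSC Bmi1Over. Its groups overlapped too, and its log2 fold change was −0.07 (SE 0.14, 95% interval −0.38 to 0.24, adjusted p = 0.774), turning to 0.01 without replicate 1 of NSC and to 0.03 without replicate 2 of NSC Bmi1Over. Both genes were free of H3K27me3 nearby, with the nearest NSC peak 305665 bp from Cdkn2c and 42116 bp from Cdkn2d, and the nearest NSC Bmi1Over peak 306765 bp and 42457 bp away.

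Among the Cip/Kip genes, Cdkn1a (ENSMUSG00000023067, chromosome 17, 29090976 to 29100727, plus strand) was at 276.2 and 267.5 CPM in NSC and at 244.9 and 231.5 CPM in NSC Bmi1Over. The values did not overlap, and the means were 271.9 ± 6.18 CPM and 238.2 ± 9.54 CPM (SD, n = 2 each). The log2 fold change was −0.19 (SE 0.14, 95% interval −0.50 to 0.12, adjusted p = 0.405), so that a decrease beyond 0.50 or an increase beyond 0.12 on the log2 scale lay outside the interval. Cdkn1b (ENSMUSG00000003031, chromosome 6, 134920401 to 134925513, plus strand), whose protein is controlled largely by Skp2-dependent degradation, was at 119.1 and 99.8 CPM in NSC and at 93.7 and 86.4 CPM in NSC Bmi1Over. Its groups were also separate, with replicate 1 of NSC well above the other 3 libraries, and the log2 fold change was −0.28 (SE 0.14, adjusted p = 0.240). Without replicate 1 of NSC it was −0.15 (adjusted p = 0.941). No peak of either list came within 5 kb of these genes, and the nearest lay 139269 bp from Cdkn1a and 404392 bp from Cdkn1b.

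Cdkn1c (ENSMUSG00000037664, chromosome 7, 143458339 to 143461050, minus strand), an imprinted gene expressed mainly from the maternal copy, received 89 and 38 reads in NSC and 22 and 94 reads in NSC Bmi1Over. These were 2.82 and 1.503 CPM in NSC and 1.26 and 1.64 CPM in NSC Bmi1Over. Replicate 1 of NSC stood above the other 3 libraries, the groups overlapped, and the log2 fold change was −0.55 with the widest interval of the members (SE 0.36, −1.36 to 0.27, adjusted p = 0.366). Without replicate 1 of NSC the estimate was −0.02, and without replicate 2 of NSC it was −0.93. Of its exonic bases, 30.7% are shared with Gm44732 on the opposite strand, and reads there cannot be assigned without strand. With these reads included, by summing the stranded columns, Cdkn1c had 217 and 72 reads in NSC and 52 and 178 reads in NSC Bmi1Over (log2 fold change −0.68, adjusted p = 0.303), so that its level depends on how shared reads are counted.

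Cdkn1c was the other member with a promoter peak, in NSC alone. A peak of 2452 bp from 143458266 to 143460717, enriched 4.94-fold at a −log10 q of 4.61, covered 87.7% of the gene and took in 3 of its 5 annotated starts but not the outermost ones. A second peak of 200 bp lay past the end of the gene with a fold of 3.57 and a −log10 q of 1.86. In NSC Bmi1Over no peak was called within 5 kb, and the nearest, of 219 bp, was 15289 bp away. Promoter peaks were found for 2 of the 7 members in NSC, where 8.83% of 22015 protein-coding genes had them, and for 1 of the 7 in NSC Bmi1Over, where 4.38% did. A peak in NSC and none in NSC Bmi1Over, seen at 1 of the 7 members, was found for 4.70% of protein-coding genes. Of the 1945 genes marked in NSC, 46.8% were also marked in NSC Bmi1Over, so that the absence of a Cdkn1c peak there is the more frequent outcome over all marked genes. The NSC peak of Cdkn1c did not reach a fold of 5, at which only Cdkn2a of the members kept a promoter peak in NSC.

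**Figure D4:**
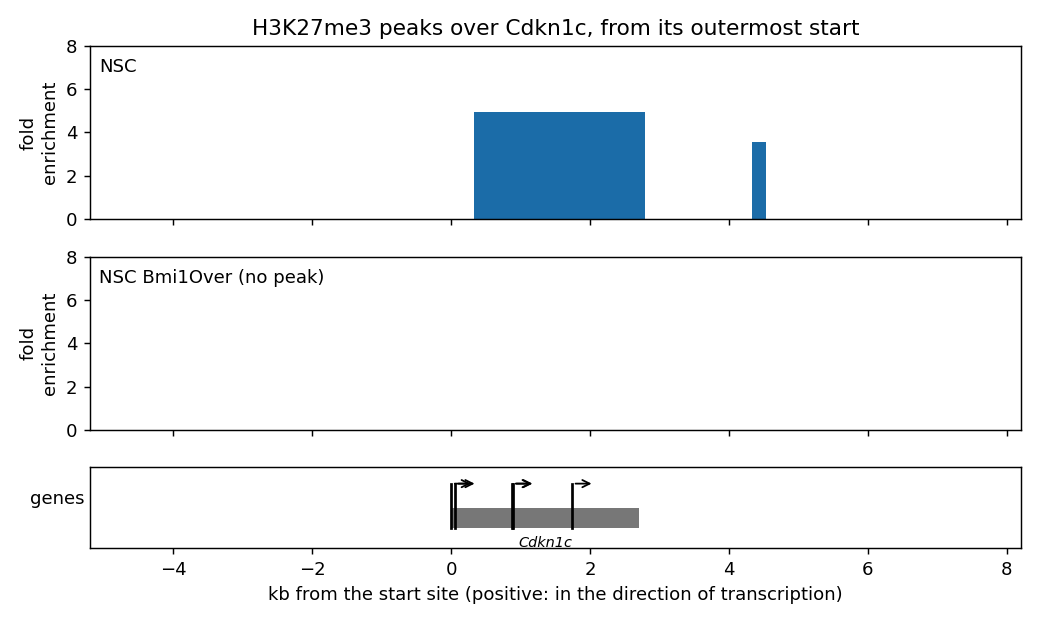
H3K27me3 peaks within 5 kb of Cdkn1c in NSC (top) and NSC Bmi1Over (middle, no peak called), drawn as bars of fold enrichment against distance in kb from the outermost start, with the gene and its 5 annotated starts below. The NSC peak of 2452 bp covers most of the gene and begins just inside the outermost starts.

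The marked members were not silent. Cdkn2a had a mean of 22.7 RPKM in NSC, where the median of the 1937 marked genes with a level was 0.0978 RPKM and that of 19891 unmarked genes was 1.31 RPKM. Only 35 marked genes were higher, which puts Cdkn2a at the percentile 98.2 of them. In NSC Bmi1Over, Cdkn2a had a mean of 16.4 RPKM and percentile 97.4 among 962 marked genes, with 25 above it. Cdkn1c, at a mean of 1.06 RPKM in NSC, was at percentile 74.7 of marked genes, with 491 above it, on the same counts without shared reads. These levels sum over all transcripts of a gene and over all cells of a culture, and the peaks of Cdkn2a lay over the Ink4a and not the Arf start.

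**Figure D5:**
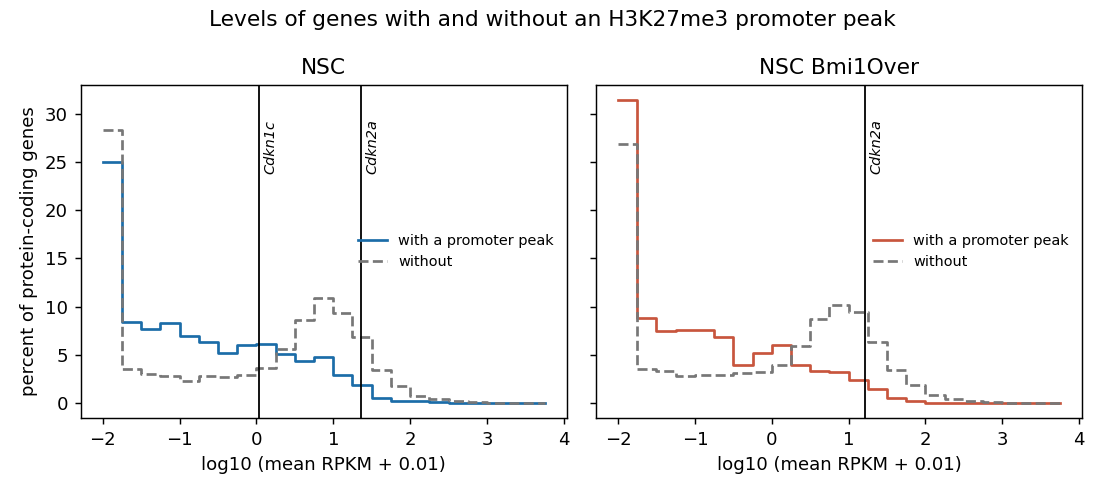
Share of protein-coding genes in percent by level, as log10 of the mean RPKM plus 0.01, for genes with an H3K27me3 promoter peak (solid line) and without (dashed line), in NSC (left) and NSC Bmi1Over (right). Vertical lines mark Cdkn1c at 1.06 RPKM and Cdkn2a at 22.7 RPKM in NSC, and Cdkn2a at 16.4 RPKM in NSC Bmi1Over, the latter in the upper tail of marked genes.

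The genes through which the CDK inhibitors act were also measured. Of 9 CDKs and cyclins of G1 and S phase, none was called, 4 had estimates above 0 and 5 below, and the median log2 fold change was −0.10. Ccnd1, which encodes a D-type cyclin that activates Cdk4 and Cdk6, was at 826.3 and 1027 CPM in NSC and at 893.9 and 839.4 CPM in NSC Bmi1Over, with the groups overlapping. Ccnd2, another D-type cyclin gene, was at 856.6 and 909.3 CPM against 799.4 and 772.8 CPM (log2 fold change −0.17, adjusted p = 0.558). Cdk4, the kinase that Ink4 proteins bind, was at 434.2 and 410.9 CPM in NSC and at 336.5 and 313.1 CPM in NSC Bmi1Over. Its groups were separate and its log2 fold change was −0.38 (SE 0.15, adjusted p = 0.166). Of 11 pocket protein and E2F genes, none was called and the median was −0.06. Their most abundant members were Rbl1, which encodes the pocket protein p107, at 77.5 and 84.6 CPM against 95.5 and 94.7 CPM, and E2f3 and E2f4, whose adjusted p were 0.823 and 0.522.

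Of 21 genes for p53 and its targets, the pathway that Arf protects and that drives Cdkn1a, 1 rose and 1 fell, and the median was −0.01. Btg2, an antiproliferative target of p53, was at 55.5 and 44.7 CPM in NSC and at 26.3 and 32.0 CPM in NSC Bmi1Over (log2 fold change −0.78, SE 0.16, adjusted p = 0.0471). Tnfrsf10b, a death receptor gene and also a p53 target, was at 16.6 and 22.5 CPM against 32.8 and 43.0 CPM (log2 fold change 0.96, SE 0.19, adjusted p = 0.0451). These targets thus moved in opposite directions. Both calls lie close to the threshold, and leaving out replicate 1 of NSC brought the adjusted p to 0.215 for Btg2 and to 0.0941 for Tnfrsf10b, which was at 0.0909 without replicate 2 of NSC Bmi1Over. With DESeq2's size factors the adjusted p was 0.0552 for Btg2 and 0.0518 for Tnfrsf10b, and with a minimum of 1 CPM in 2 libraries it was 0.0527 for Btg2. Ccng1, the most abundant gene of the list, was at 243.0 and 257.4 CPM against 259.2 and 224.2 CPM (adjusted p = 0.846). Cdkn1a, with its estimate of −0.19, was not called in any setting tried.

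Of 10 genes for the turnover of p27, p21 and p57, none was called and the median was −0.12, with Ddb1, a subunit of the ligase that degrades p21 in S phase, at 461.2 and 452.8 CPM against 420.7 and 367.3 CPM (adjusted p = 0.411). Skp1a and Cul4a, further ligase subunits, had adjusted p of 0.487 and 0.5004. Of 20 genes for Polycomb subunits and their opponents at the Ink4 locus, none was called, 14 estimates were below 0, and the median was −0.07. The most abundant were Kmt2a, a methyltransferase of the Trithorax group, at 260.4 and 300.7 CPM against 285.7 and 317.7 CPM, and the Polycomb subunit genes Phc2 (adjusted p = 0.596) and Cbx6 (adjusted p = 0.188).

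Of 20 upstream regulators of the members, 1 rose, 15 had estimates below 0, and the median was −0.12. The gene that rose was Tbx3, a T-box repressor known to act on the Arf promoter, at 0.729 and 0.198 CPM in NSC and at 2.40 and 2.85 CPM in NSC Bmi1Over (log2 fold change 2.45, SE 0.46, adjusted p = 0.0414). Its level was thus low in every library, and its adjusted p was 0.0976 without replicate 2 of NSC Bmi1Over and 0.0734 after thinning to the smallest library. Without replicate 1 of NSC the log2 fold change was 3.72. Id3, an inhibitor of helix-loop-helix factors, was at 113.1 and 114.4 CPM against 136.5 and 109.7 CPM, and Myc, a repressor of Cdkn2b and Cdkn1a transcription, was at 113.1 and 121.4 CPM against 105.4 and 117.9 CPM. Neither was called (adjusted p = 0.641 and 0.759). Over the pathway lists together, the imprinted neighbours of Cdkn1c included, 4 of 97 tested genes were called, beside 2.15% of all tested genes.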

How the data were processed

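RNASeq counts from 4 libraries and H3K27me3 peaks from 2 were analysed. Per the paper's methods and the submitters' processing notes, the authors used Trim Galore and STAR (mm10) for RNASeq and deposited unnormalised read counts per gene. Reads that were unmapped, multi-mapped, ambiguous or in no gene were left out of totals and fits, and 65.9% to 72.2% of all reads were counted on genes. For ChIPSeq, the authors used Bowtie2 2.3.4 and, for 1 retained library of each genotype, MACS2 in its broad mode, and the deposited lists give a fold enrichment (a ratio to background) and the −log10 of the p-value and q-value of each peak. The deposited display score was not used.

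Of 50686 gene identifiers, 50462 matched GENCODE vM21. As strand columns had nearly equal totals, unstranded counts were used. In R 4.3.3, counts were filtered with filterByExpr, TMM-normalised and tested with edgeR 4.0.16 (quasi-likelihood F-test, no term for the replicate number, threshold 0.05 on the Benjamini-Hochberg adjusted p), the test of the paper's methods. SE was the log2 fold change over the root of F. RPKM used the union of exons. DESeq2 1.42.0 was an alternative. The steps were tested on simulated counts with 200 changed genes. The biological coefficient of variation was 12.9%.

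Peaks were handled in Python 3.11.15. Genes with a peak reaching within 5 kb of an annotated start, by 1 bp or more, count as having a promoter peak, and mitochondrial genes were left out. The members and all lists were chosen with earlier results of these data known. From each pathway list the called genes are named, filled up to 3 by highest mean CPM. Kpc1 of the turnover list was not found under that symbol. The alternatives were other scalings, filters, tests and gene sets, thinning, a block for the replicate number, omission of each library, the longest transcript as length, and stricter peak and window limits.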

Additional observations from a re-analysis of the deposited data

How the results depend on the processing

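Over all genes, 334 were called (315 higher and 19 lower in NSC Bmi1Over). The count was 1496 with DESeq2's Wald test, 537 with library size alone (346 higher and 191 lower), 2356 without a filter on low counts (28541 genes tested) and 176 to 2546 when a library was left out (176 without replicate 1 of NSC, 1461 without replicate 2 of NSC and 2546 without replicate 1 of NSC Bmi1Over). Of the members, none was called in the main setting, 1 without the filter, and 0 to 1 when a library was left out. Pathway list genes called were 4, against 1 with DESeq2's size factors, 9 without the filter and 1 to 10 when a library was left out. Cdkn2a passed the threshold without the filter (−0.50) and, when a library was left out, ranged from −0.65 to −0.31. The same range was −0.81 to −0.42 for Cdkn2b, −0.24 to −0.15 for Cdkn1a, −0.41 to −0.15 for Cdkn1b, −0.93 to −0.02 for Cdkn1c, −0.39 to −0.04 for Cdkn2c and −0.16 to 0.03 for Cdkn2d, which turned to 0.0089 without replicate 1 of NSC and to 0.026 without replicate 2 of NSC Bmi1Over. Tssc4 lost its call without replicate 1 of NSC, without replicate 2 of NSC Bmi1Over and with DESeq2's size factors (adjusted p = 0.0509). The cause of these shifts was not tested.

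With the replicate number as a block, 3459 genes were called over all, 18 of the pathway lists and 2 members, Cdkn2a (−0.48, adjusted p = 0.0113) and Cdkn2b (−0.60, adjusted p = 0.0426). The labels share the numbers 1 and 2 between groups without saying that they pair cultures, and over 2 pairs the deviations of same-numbered libraries correlated at 0.272, so that the pairing is not established.

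With the longest transcript as length, Cdkn1a was at 122.6, Cdkn2a at 25.6 and Cdkn2d at 19.8 RPKM. Promoter peaks in NSC were 1 in place of 2 members with a fold of at least 5 (Cdkn2a kept) and with at least 50% of the peak inside the window (Cdkn1c kept), and Cdkn2a had its promoter peak in NSC Bmi1Over in all 5 peak settings. The ChIPSeq library kept for each genotype is not named in the sources used here, and groups of 2 libraries are too small to flag single samples as outlying.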

Other observations

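Cdkn1c lies in an imprinted cluster, and its neighbours there differed among themselves. Of 11 neighbours listed, 6 had enough reads to be tested, 4 with estimates above 0 and 2 below, with a median log2 fold change of 0.43. Tssc4 rose, from 83.0 and 122.8 CPM in NSC to 189.9 and 241.0 CPM in NSC Bmi1Over (log2 fold change 1.07, SE 0.20, adjusted p = 0.0428), with an adjusted p of 0.0945 without replicate 1 of NSC of 0.0732 without replicate 2 of NSC Bmi1Over and of 0.0509 with DESeq2's size factors. Cd81, a tetraspanin gene, was at 842.0 and 1071 CPM against 1546 and 1832 CPM (log2 fold change 0.82, adjusted p = 0.0764), and Nap1l4, a histone chaperone gene, was at 221.5 and 209.5 CPM against 204.4 and 167.0 CPM (log2 fold change −0.22, adjusted p = 0.387). Kcnq1ot1, the long non-coding RNA that silences Cdkn1c on the paternal chromosome, was named after its values were seen, at 32.4 and 36.7 CPM against 41.5 and 51.6 CPM (log2 fold change 0.44, adjusted p = 0.123). Kcnq1, next to Cdkn1c and within the reach of that RNA on the other strand, was at or under 0.0791 CPM in each library and had a promoter peak in NSC and none in NSC Bmi1Over, as did Ascl2, while Phlda2 and Igf2 had a promoter peak in both lists.

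Of the 20 upstream regulators of the members, 6 had an H3K27me3 promoter peak in both lists (Ets1, Id4, Mycn, Tbx2, Tbx3 and Hes1), against 8.83% and 4.38% of protein-coding genes. None of the 11 pocket protein and E2F genes or of the 21 genes for p53 and its targets was marked. Cdk6, which encodes a kinase bound by Ink4 proteins, was marked in both lists, as were the Polycomb subunit genes Pcgf2 and Cbx2, and Cul4b was marked in NSC alone. These genes were named by their peaks after the peaks were seen. Tbx3, marked in both lists, was the only called gene of its list.

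The patterns over the 4 libraries that were closest to Cdkn2b, by Euclidean distance of centred log2 CPM, were those of Nek1 (0.0535), Dusp23 (0.0583) and Eps15 (0.0669), and 12 of 13307 protein-coding genes lay within 0.1. For Cdkn1c they were those of Ephx2 (0.0526), Bcl11a (0.0866) and Fam78a (0.149), with 2 genes within 0.1. The 4 libraries are 2 of each genotype and differ in depth, and no test was made of these distances.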
